A study of Homo sapiens with 42 samples.

Results

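Broad domains of H2AK119ub and of H3K9me3 were compared in parental NCI-H661 cells, an established line of lung large cell carcinoma. A consensus domain of a mark joined EPIC2 islands, the broad enriched regions called in each library, wherever islands of replicate 1 and replicate 2 overlapped by more than 25% of each. There were 21180 H2AK119ub and 34864 H3K9me3 consensus domains. A domain was called both marks where consensus domains of the 2 marks overlapped by more than 25% of either, and alone otherwise. Of 52403 domains after this joining, 3066 (5.85%) had both marks, 18006 (34.4%) had H2AK119ub alone and 31331 (59.8%) had H3K9me3 alone.

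The 4 libraries compared were 2 of H2AK119ub and 2 of H3K9me3, of 42 samples in the series, all from untreated parental cells crosslinked with formaldehyde only and called against genomic input. They were set against MACS2 narrow peaks of DPPA2 (replicates 1 and 3), DPPA4 (labelled DPPA4n, replicates 2 and 3), SUZ12 and KDM2A (1 library each) from the same untreated line, whose chromatin was crosslinked with 2 agents, and against islands of H3K27ac, H3K4me1, H3K36me2 and H3K36me3. A DPPA2/4 peak was a region in all 4 DPPA2 and DPPA4 peak lists, and there were 8825. SUZ12 had 34512 peaks and rests on 1 library. H2AK119ub and H3K9me3 libraries of a second line, NCI-H1299, entered only the comparison of lines and are described there. The study calls its replicates independent, but no source used here says that they came from separate cultures. The p-values therefore compare only these libraries and say nothing on the spread between cultures.

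H2AK119ub is the ubiquitin placed on histone H2A by Polycomb repressive complex 1 (PRC1), and SUZ12 is a core subunit of PRC2, which methylates H3K27. Both complexes are best known for repressing developmental genes at CpG-rich promoters. H3K9me3 is the mark of constitutive heterochromatin, where it covers repeats and gene clusters such as those of KRAB zinc finger proteins and protocadherins. DPPA2 and DPPA4 are DNA-binding proteins of the early embryo that bind CG-rich promoters, and KDM2A binds unmethylated CpGs through its CXXC domain. In bulk chromatin a domain with both marks does not show whether they lie on the same nucleosome, the same allele or in the same cell.

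The sequences below show 200 bases of hg38, plus strand, from the domain of each class that ranked first by fold percentile. The rank used the lowest percentile over the libraries of a domain. Only domains of at least 1000 bp with at least 10 input reads were ranked, so others of their class can have higher folds. CpG dinucleotides, the target of CXXC domains and the base of Polycomb-type promoters, are in capitals. The first is centred on the highest SUZ12 summit in a domain with both marks (chr2:1744648-1744847), within the annotated extent of PXDN, which encodes an extracellular matrix peroxidase. This window lies 133 bp upstream of the TSS used here for PXDN, a minus-strand gene, and within the promoter window. The second is centred on the highest SUZ12 summit in an H2AK119ub domain (chr22:49631851-49632050) in an intron of the lncRNA gene MIR3667HG, 195823 bp from the nearest protein-coding TSS. The third is the centre of an H3K9me3 domain (chr2:5692051-5692250) 134 bp upstream of the TSS of SOX11, a transcription factor of neural progenitors.
both marks, PXDN: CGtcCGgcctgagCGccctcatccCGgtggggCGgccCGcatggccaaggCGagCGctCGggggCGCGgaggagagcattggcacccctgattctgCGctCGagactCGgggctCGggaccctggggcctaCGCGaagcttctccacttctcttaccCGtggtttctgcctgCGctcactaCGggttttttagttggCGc
H2AK119ub alone, MIR3667HG: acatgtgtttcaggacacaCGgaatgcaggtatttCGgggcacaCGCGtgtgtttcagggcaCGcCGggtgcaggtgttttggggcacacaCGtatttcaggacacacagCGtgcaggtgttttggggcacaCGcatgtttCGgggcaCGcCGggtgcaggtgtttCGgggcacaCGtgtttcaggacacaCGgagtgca
H3K9me3 alone, SOX11: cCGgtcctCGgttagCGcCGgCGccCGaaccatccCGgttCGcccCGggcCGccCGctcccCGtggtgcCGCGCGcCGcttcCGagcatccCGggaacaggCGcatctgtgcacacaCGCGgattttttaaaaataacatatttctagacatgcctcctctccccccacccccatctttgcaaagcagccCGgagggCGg
These windows held 21, 15 and 23 CpGs. The PXDN and SOX11 windows are both CpG-dense promoter sequence, while the MIR3667HG window has fewer CpGs. In these 3 examples CpG density did not follow the mark: the densest window was the one with H3K9me3 alone.

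The PXDN domain (chr2:1739901-1748600, 8700 bp) had log2 folds over input of 2.56 and 2.76 for H2AK119ub and 3.91 and 2.92 for H3K9me3 in replicates 1 and 2. The MIR3667HG domain (chr22:49626201-49632500, 6300 bp) had log2 folds of 3.90 and 3.96 for H2AK119ub and also overlapped 1200 bp of H3K9me3 islands in replicate 1 only. The SOX11 domain (chr2:5690201-5694100, 3900 bp) had log2 folds of 3.99 and 3.33 for H3K9me3 and overlapped 3200 bp of H2AK119ub islands in replicate 2 only (log2 fold 2.42). These values also show that a domain with a mark alone can hold islands of the other mark from 1 library. Log2 folds are the authors' own and order islands within a library.

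The libraries were unequal. After filtering, the H2AK119ub lists held 44537 islands over 51.0 Mb (replicate 1) and 110357 over 146 Mb (replicate 2), and the H3K9me3 lists held 127865 over 74.1 Mb and 89725 over 103 Mb. Islands contained 1.32 M and 6.65 M ChIP reads for H2AK119ub and 1.93 M and 2.95 M for H3K9me3, which are reads inside islands and not sequencing depth. Of the islands, 71.4% and 25.4% for H2AK119ub, and 40.0% and 48.8% for H3K9me3, overlapped an island of the same mark in the other replicate. Replicate 2 of H2AK119ub was the list with the most bases and reads in islands, and most of its islands had no partner. Islands with 0 input reads made up 1.55% and 2.53% of the H2AK119ub lists and 9.69% and 2.38% of the H3K9me3 lists.

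The 2 marks covered similar amounts of the genome. Most bases of each mark lay outside the other, but the shared part exceeded the share of genome that either mark covered. H2AK119ub domains covered 49.2 Mb, 1.68% of the genome without gaps, and H3K9me3 domains 48.4 Mb, 1.65%. They had 5.45 Mb in common, which was 11.1% of H2AK119ub bases and 11.2% of H3K9me3 bases. The libraries compared likely share an input, and its part in this overlap was not tested. H3K9me3 was on 3174 of 21180 H2AK119ub domains (14.99%, 95% Wilson interval 14.5 to 15.5%), and H2AK119ub was on 3533 of 34864 H3K9me3 domains (10.1%, 9.82 to 10.4%). Such intervals cover counting error only, since neighbouring domains are not independent. The share of H2AK119ub domains with H3K9me3 depended on the libraries, and was 27.9% without H3K9me3 replicate 1, 28.5% without H3K9me3 replicate 2, 11.8% without H2AK119ub replicate 1 and 11.2% without H2AK119ub replicate 2. With islands of replicate 1 of each mark only it was 20.9%, and with those of replicate 2 only 22.9%, both above the consensus value. In single pairs of libraries, 11.8% to 17.9% of H2AK119ub bases lay in H3K9me3 islands, which covered 2.52% of the genome in replicate 1 and 3.51% in replicate 2.

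Domains with both marks were the widest. Their median width was 2700 bp (quartiles 1800 and 4100 bp), against 1700 bp (1200 and 2500) for H2AK119ub alone and 1100 bp (900 and 1500) for H3K9me3 alone. Domains over 10 kb numbered 149 with both marks, 125 with H2AK119ub alone and 22 with H3K9me3 alone, in classes of very different size. Joining domains of 2 marks itself widens a domain, so the width is partly set by the rule. In the median domain with both marks H2AK119ub covered 95.2% of the length, H3K9me3 71.4%, and both together 53.3%. Most of these domains (2643 of 3066) were built from 1 consensus domain of each mark. H2AK119ub covered the whole domain in 1335 cases and H3K9me3 in 569.

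SUZ12 peaks were most frequent in domains with both marks, less so in H2AK119ub alone and rare in H3K9me3 alone. Of all joined domains 16.1% overlapped a SUZ12 peak. The share was 48.2% (46.5 to 50.0%) of domains with both marks, 31.8% (31.1 to 32.5%) of domains with H2AK119ub alone and 3.85% (3.64 to 4.06%) of domains with H3K9me3 alone. As odds ratios, these were 2.00 (1.85 to 2.16) for both marks over H2AK119ub alone and 11.7 (10.9 to 12.5) for H2AK119ub alone over H3K9me3 alone. The second of these was 18.4 without H3K9me3 replicate 2, and 50.7 where alone meant no island of the other mark in either replicate, an alternative chosen after the data were seen.

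DPPA2/4 peaks had another order. They were in 5.57% of all joined domains, and in 60 of 3066 domains with both marks (1.957%, 1.52 to 2.51%), 2783 of 18006 with H2AK119ub alone (15.5%, 14.9 to 16.0%) and 75 of 31331 with H3K9me3 alone (0.239%, 0.191 to 0.300%). The odds ratio was 0.109 (0.0843 to 0.141) for both marks over H2AK119ub alone, so that SUZ12 was more frequent and DPPA2/4 less frequent where H3K9me3 lay on H2AK119ub. Each DPPA library gave the same order. For DPPA2 replicate 1, the list with most peaks, the shares were 11.2% with both marks, 34.01% with H2AK119ub alone and 2.81% with H3K9me3 alone. For DPPA4 replicate 2 they were 3.10%, 21.0% and 0.373% in the same order. The odds ratio of H2AK119ub alone over H3K9me3 alone was 76.2 (60.5 to 95.9), and its size rested on the libraries: it was 30.2 without H2AK119ub replicate 1, 46.6 without H2AK119ub replicate 2 and 136 without H3K9me3 replicate 1. With islands of replicate 1 of each mark only it was 52.1, and with those of replicate 2 only 61.9.

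**Figure D1:**
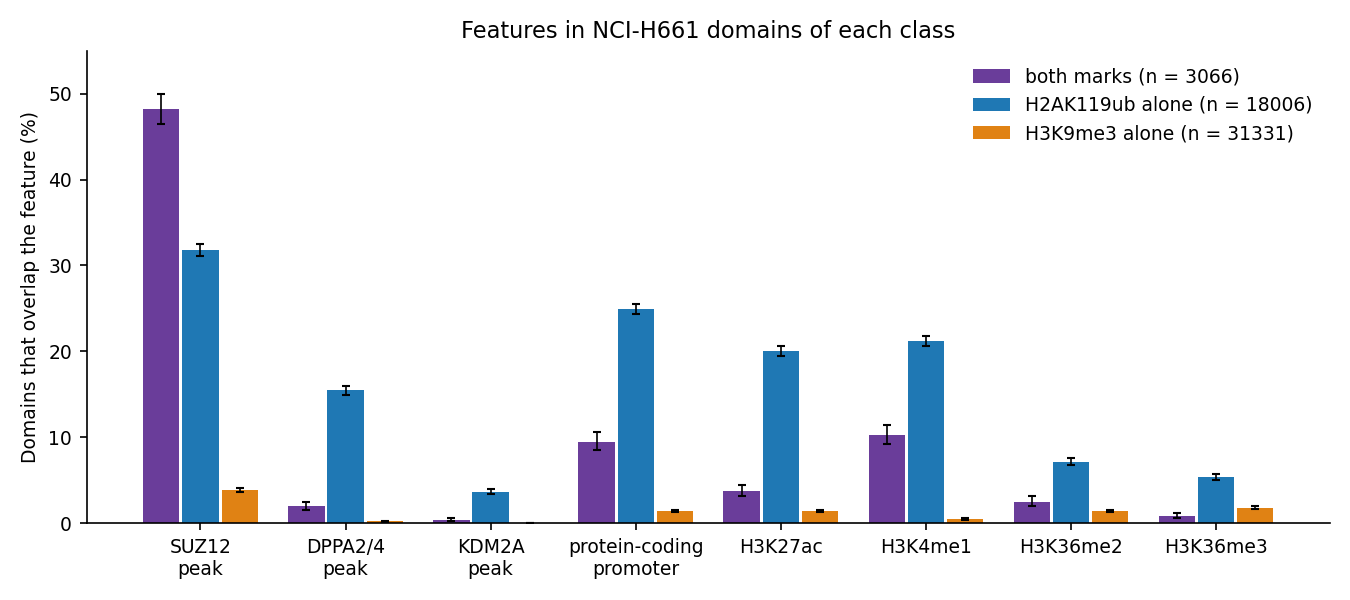
Share of domains (%) that overlap each feature, for domains with both marks, H2AK119ub alone and H3K9me3 alone, with 95% Wilson intervals. The SUZ12 bar is tallest for both marks (48.2%), whereas the DPPA2/4, KDM2A, promoter and acetylation bars are tallest for H2AK119ub alone.

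The other marks of active chromatin went with H2AK119ub alone. KDM2A peaks were in 11 domains with both marks (0.359%), 3.67% of those with H2AK119ub alone and 4 with H3K9me3 alone (0.0128%). H3K27ac, the mark of active promoters and enhancers, was called in both replicates at 3.75% of domains with both marks, 20.0% with H2AK119ub alone and 1.45% with H3K9me3 alone. H3K4me1, an enhancer mark, was at 10.3%, 21.2% and 0.498% of the classes in that order. By single library it was at 14.35%, 26.8% and 1.03% in replicate 1 and at 31.0%, 36.2% and 3.62% in replicate 2. Called in both replicates, the gene-body marks were sparse in each class, with H3K36me2 at 2.51%, 7.16% and 1.40% and H3K36me3 at 0.848%, 5.35% and 1.79%. H3K36me2 depended on the library, with 3.78%, 9.31% and 2.18% in replicate 1 and 15.5%, 29.5% and 8.76% in replicate 2. H3K36me3 was thus the one mark of these that was less frequent with both marks than with H3K9me3 alone, in replicate 1 (1.44%, 7.17% and 3.45%) but not in replicate 2 (6.20%, 7.60% and 3.50%).

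Acetylation separated DPPA2/4 from SUZ12 within a class. Among domains with H2AK119ub alone, DPPA2/4 peaks were in 51.3% of the 3609 with H3K27ac and 6.46% of the 14397 without, whereas SUZ12 peaks were in 13.9% of those with H3K27ac and 36.3% of those without. Among domains with both marks only 115 had H3K27ac, and DPPA2/4 peaks were in 36 of these and in 24 of the 2951 others. Without H3K27ac, DPPA2/4 peaks were in 0.813% of domains with both marks, 6.46% with H2AK119ub alone and 0.165% with H3K9me3 alone, so the order of the classes was the same.

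Since wide domains can hold more peaks by length alone, the classes were also compared within bins of width. SUZ12 was more frequent in wider domains of each class. Between 1 and 2 kb it was in 28.1% of domains with both marks (25.2 to 31.1%), 23.9% with H2AK119ub alone (22.98 to 24.8%) and 3.76% with H3K9me3 alone. Above 10 kb it was in 88.6% (82.5 to 92.8%), 76.8% (68.7 to 83.3%) and 27.3% (13.2 to 48.2%) in that order. The intervals of both marks and H2AK119ub alone overlapped up to 1 kb, between 2 and 3 kb and above 10 kb. They stood apart between 1 and 2 kb, between 3 and 5 kb (61.1%, 57.4 to 64.6%, and 53.6%, 51.5 to 55.6%) and between 5 and 10 kb (76.5%, 72.1 to 80.4%, and 68.1%, 64.7 to 71.3%). For domains of 1 to 3 kb the odds ratio of both marks over H2AK119ub alone was 1.35. The difference in DPPA2/4 did not shrink in this way. Between 1 and 2 kb DPPA2/4 was in 0.447% of domains with both marks, 11.8% with H2AK119ub alone and 0.158% with H3K9me3 alone, and above 10 kb in 14.1% (21 of 149), 51.2% (64 of 125) and 0 of 22, which allows up to 14.9% by the Wilson interval.

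**Figure D2:**
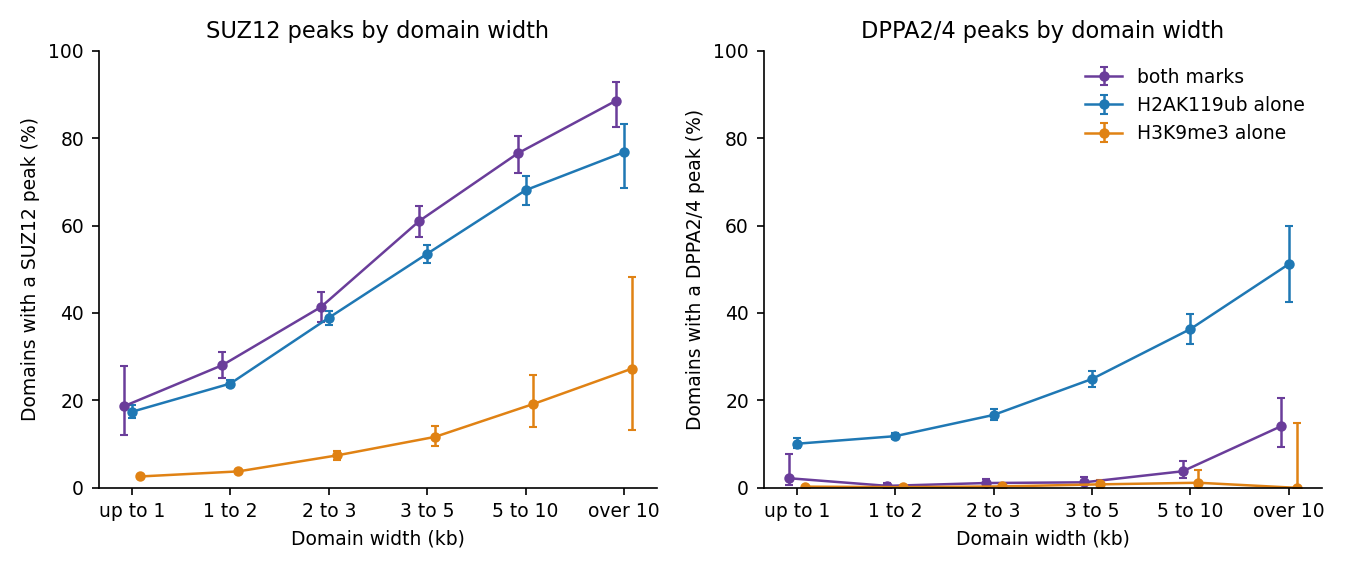
Share of domains (%) with a SUZ12 peak (left) and a DPPA2/4 peak (right) by domain width in kb, with 95% Wilson intervals, for both marks, H2AK119ub alone and H3K9me3 alone. For SUZ12 the lines of both marks and H2AK119ub alone run close together, from 18.7% and 17.4% up to 1 kb to 88.6% and 76.8% above 10 kb, while for DPPA2/4 they stand apart at each width.

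Counting points per base takes out domain length, but does not match the classes by width. SUZ12 summits lay at 356 per Mb of bases with both marks, 240 per Mb of bases with H2AK119ub alone and 38.5 per Mb of bases with H3K9me3 alone, against 11.7 per Mb of genome. DPPA2/4 peak centres lay at 4.59, 47.7 and 1.14 per Mb in the same order, against 3.00 per Mb of genome. Bases with both marks therefore had more SUZ12 and fewer DPPA2/4 centres per Mb than bases with H2AK119ub alone. Each replicate number gave the same order: SUZ12 summits were at 346 (both marks) and 208 (H2AK119ub alone) per Mb in replicate 1 and at 209 and 117 per Mb in replicate 2, and DPPA2/4 centres at 9.37 and 42.3 per Mb in replicate 1 and 2.10 and 31.2 per Mb in replicate 2. Of SUZ12 peaks, 11.7% overlapped a domain with both marks, 27.6% one with H2AK119ub alone and 4.94% one with H3K9me3 alone, and 56.1% were in no domain. Their median folds were 4.70, 5.00, 4.58 and 4.55, a narrow range.

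Domains called alone were not all free of the other mark. Of those with H2AK119ub alone, 26.3% overlapped an H3K9me3 island in at least 1 replicate, and of those with H3K9me3 alone 31.4% overlapped an H2AK119ub island, mostly of replicate 2 (29.0%, against 4.73% in replicate 1). The 13278 H2AK119ub domains with no H3K9me3 island had SUZ12 in 28.3% and DPPA2/4 in 19.4%, while the 4728 others had SUZ12 in 41.7% and DPPA2/4 in 4.38%. These others thus lay on the side of the domains with both marks for each factor. The 21491 H3K9me3 domains with no H2AK119ub island had SUZ12 in 0.772%, whereas the 9840 others had it in 10.6%. Most of the SUZ12 seen in domains with H3K9me3 alone (1039 of 1205 domains) was therefore where 1 library or both had H2AK119ub islands.

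The library was the unit for a test of the marks. SUZ12 peaks were in 24.4% and 12.8% of islands in the H2AK119ub libraries and 4.57% and 6.47% in the H3K9me3 libraries. DPPA2/4 peaks were in 8.99% and 5.33% of H2AK119ub islands and 0.372% and 0.212% of H3K9me3 islands. Protein-coding promoters, 1500 bp to either side of the TSS, were in 16.0% and 9.70% of H2AK119ub islands and 1.78% and 1.66% of H3K9me3 islands. The marks did not overlap in any of these 3 measures. The differences between the means were 13.1, 6.86 and 11.1 percentage points, against SDs of 8.21 and 1.34, 2.59 and 0.113, and 4.48 and 0.0804 points for H2AK119ub and H3K9me3 (n = 2 each). Each had an exact permutation p of 0.333, two-sided, which is the smallest that 2 libraries against 2 allow, so none could pass 0.05. The SUZ12 difference was 7.29 points without H2AK119ub replicate 1.

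H2AK119ub domains lay nearer to genes. The median distance to the nearest protein-coding TSS was 85.7 kb (quartiles 23.3 and 211 kb) for both marks, 22.9 kb (1.55 and 89.6 kb) for H2AK119ub alone and 145 kb (46.7 and 347 kb) for H3K9me3 alone. A TSS lay inside 7.99% of domains with both marks, 11.1% with H2AK119ub alone and 0.702% with H3K9me3 alone, whereas 46.0%, 22.9% and 59.0% lay over 100 kb from any. Domains with both marks thus stood between the other classes by distance. They are wider, which bears on the share that held a TSS. TSSs lay at 21.5 per Mb of bases with both marks, 49.3 with H2AK119ub alone and 5.47 with H3K9me3 alone, against 6.82 per Mb of genome. Among domains of 1 to 2 kb 3.69%, 19.8% and 1.48% of the classes in that order overlapped a promoter. By library the medians were 34.9 and 41.0 kb for H2AK119ub islands and 109 and 141 kb for H3K9me3 islands, which did not overlap.

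**Figure D3:**
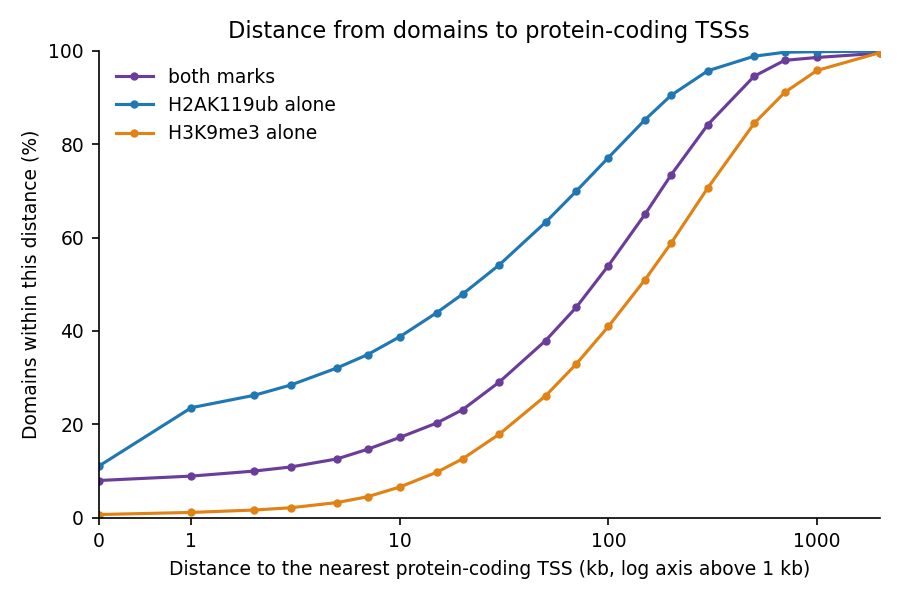
Cumulative share of domains (%) within a given distance (kb, log axis above 1 kb) of the nearest protein-coding TSS, for both marks, H2AK119ub alone and H3K9me3 alone. The H2AK119ub-alone curve climbs between 0 and 1 kb, while the curve of both marks starts at 7.99% and then runs between the others.

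Domains with H2AK119ub alone overlapped promoters most often. Of all joined domains 9.98% overlapped a protein-coding promoter, and the share was 9.49% (8.50 to 10.6%) with both marks, 24.9% (24.3 to 25.6%) with H2AK119ub alone and 1.43% (1.31 to 1.57%) with H3K9me3 alone. The odds ratio of H2AK119ub alone over H3K9me3 alone was 22.8 (20.7 to 25.2), and 11.3 without H2AK119ub replicate 1 and 14.9 without H2AK119ub replicate 2. With islands of replicate 1 of each mark only it was 16.1, and with those of replicate 2 only 14.4. At promoters, SUZ12 was in 83.8% of domains with both marks, 45.3% with H2AK119ub alone and 18.0% with H3K9me3 alone. At promoters without H3K27ac the shares were 86.7%, 69.2% and 18.6% in that order, so the gap between the first 2 classes was smaller where acetylation was absent. Away from promoters SUZ12 was in 44.5%, 27.3% and 3.64%.

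By gene class, 41.6% of domains with both marks, 58.2% with H2AK119ub alone and 32.9% with H3K9me3 alone overlapped a protein-coding gene, and such genes cover 44.4% of the genome. Long noncoding RNA genes, which cover 18.6% of the genome, were in 22.8%, 20.4% and 21.2%, which set the classes apart little. Pseudogenes, which cover 1.75% of the genome, were in 3.56%, 2.22% and 3.45%, and no gene in 39.6%, 28.6% and 46.5%. Introns held the centre of 41.8%, 41.6% and 46.4% of domains, so the classes differed mainly in the shares centred on promoters (6.95%, 18.9% and 1.08%) and between genes (43.6%, 30.1% and 47.8%). The median CpG density was 16.8 per kb with both marks, 19.3 with H2AK119ub alone and 12.1 with H3K9me3 alone, while the median GC content was 50.9%, 53.3% and 50.2%. The domains with both marks were thus lower in CpG than those with H2AK119ub alone despite carrying more SUZ12.

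Seen from the 20033 promoters of protein-coding genes, 262 (1.31%) held a consensus domain of both marks, 4104 (20.5%) H2AK119ub alone and 401 (2%) H3K9me3 alone. SUZ12 peaks were at 83.6%, 47.4% and 18.95% of these promoters, and at 5.84% of the 15266 with neither mark. DPPA2/4 peaks were at 9.54%, 46.1% and 3.49%, and at 21.9% of those with neither. At promoters, too, H3K9me3 beside H2AK119ub went with more SUZ12 and less DPPA2/4.

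The gene lists, which were chosen with earlier results of these data known and so give no independent check of the labels, show which genes the classes held. Genes were classed by the promoter window only, so marks elsewhere in a gene were not counted. Among 225 developmental transcription factors, the classical Polycomb targets, 18 promoters (8%) had both marks, 138 (61.3%) H2AK119ub alone and 6 (2.67%) H3K9me3 alone. MSX1 (log2 folds 3.801 and 5.52 for H2AK119ub), SOX8 (3.13 and 3.35), SIX3 and the homeobox gene NKX1-1 led those with H2AK119ub alone. NKX2-6, FOXI2, SOX1 and FOXB2 led those with both marks, and all 4 had a SUZ12 peak. At SOX1, a neural stem cell factor, log2 folds were 2.72 and 3.05 for H2AK119ub and 3.61 and 3.91 for H3K9me3, and it also had a DPPA2/4 peak. The factors with H3K9me3 alone included SOX30, a germ cell factor (5.69 and 6.17), TBX18, SOX11 and PAX1, and the last 3 had an H2AK119ub island in replicate 2.

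Collagens and the Wnt pathway showed the same side. Of 44 collagen genes 0 had both marks, 27 (61.4%) had H2AK119ub alone and 0 had H3K9me3 alone, with COL6A6 (3.67 and 4.16) and COL18A1 highest by fold. Of 29 Wnt ligand and Frizzled receptor genes, 19 had H2AK119ub alone, led by WNT7B (3.64 and 3.87), and 2, WNT5A and FZD10, had both marks, each with SUZ12 and without DPPA2/4. Among 213 neuronal channels and transmitter receptors, 12 had both marks, 84 (39.4%) H2AK119ub alone and 13 H3K9me3 alone. KCNJ3, a potassium channel gene with both marks, had log2 folds of 2.25 and 2.98 for H2AK119ub and 3.20 and 2.61 for H3K9me3. Each of these 3 lists had a share of H2AK119ub alone above the 20.5% of all promoters.

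Some gene lists, several of them clustered families, had H3K9me3 alone more often than the 2% of all promoters. Beside those below, these were taste receptors (7.41%, 2 of 27) and neuronal channels and transmitter receptors (6.10%, 13 of 213). Cancer-testis genes of chromosome X (3.125%), developmental transcription factors (2.67%) and defensins (2.17%) lay closer to 2%. Of 53 clustered protocadherins, adhesion proteins of neurons, 23 (43.4%) had H3K9me3 alone, with PCDHA9 at 7.82 and 5.27 and PCDHA3 at 5.61 and 4.41, and 0 had an H2AK119ub consensus domain. Of 149 keratins and keratin-associated proteins 10 had both marks, 15 H2AK119ub alone and 28 (18.8%) H3K9me3 alone, KRTAP1-1 with log2 folds of 6.20 and 6.10. Of 558 zinc finger genes 2 had both marks at the promoter (ZNF512B and ZNF599), 39 (6.99%) H2AK119ub alone and 40 (7.17%) H3K9me3 alone. At 85.5% the promoter had neither, and marks over gene bodies were not counted. Those with H3K9me3 alone included ZNF679 (4.67 and 5.76), ZNF595, ZNF99 and ZNF135. Of 415 olfactory receptors 1 had both marks (OR10C1), 5 H2AK119ub alone and 20 (4.82%) H3K9me3 alone, and 93.7% had neither at the promoter. Clustered families can hold near-identical copies between which short reads can be split, so their single members are uncertain. The zinc finger list was drawn by symbol, so not all its members are in clusters. Ribosomal protein genes, active in every cell, had H2AK119ub at 5 of 83 promoters and H3K9me3 at 0.

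The remaining lists stood near or below the shares of all promoters for H2AK119ub alone. Polycomb subunits had it at 7 of 34 promoters (20.6%), PCGF2, CBX2 and CBX7 among them, and the H3K9 methylation machinery at 4 of 22 (18.2%, at UHRF1, KDM4B, EHMT2 and TRIM28). Defensins had both marks at DEFB118, H2AK119ub alone at DEFB121, DEFB4B and DEFB1, and H3K9me3 alone at DEFB124, of 46 genes. Taste receptors had H2AK119ub alone at TAS1R3 and H3K9me3 alone at TAS2R1 and TAS2R4, of 27, and cancer-testis genes of chromosome X had H3K9me3 alone at MAGEC3, CT45A10 and MAGEA10, of 96.

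The widest domains differed in kind between the classes. The widest with both marks was chr19:30216401-30290900 (74500 bp), centred in an intron and 81484 bp from the TSS of ZNF536, a zinc finger repressor of neurons. It had log2 folds of 1.34 and 1.51 for H2AK119ub and 1.897 and 1.23 for H3K9me3, so it was broad and low. Most of the 10 widest were on chromosome 19, around ZNF536 and VSTM2B, and another was at IRX4 on chromosome 5, which encodes a homeobox factor of the heart ventricle. At chr5:1858301-1900200 (IRX4, 41900 bp) H2AK119ub islands covered 39700 and 41900 bp and H3K9me3 islands 19800 and 22800 bp. At PMEPA1 (chr20:57671701-57717200, 45500 bp) H3K9me3 islands covered only 3400 and 3500 bp, so the class rested there on a small H3K9me3 domain in a wide H2AK119ub one.

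The 10 widest domains with H2AK119ub alone lay at developmental genes in most cases, GATA5, PAX7, UNCX, UTF1 and VENTX, SP9, NKX2-2 and FOXF2 among them. The PAX7 domain (chr1:18626001-18651300, 25300 bp), at a factor of muscle stem cells, had log2 folds of 2.68 and 2.85 and no H3K9me3 island in either replicate. The UNCX domain (chr7:1229501-1253100, 23600 bp) had log2 folds of 2.72 and 2.91 and both SUZ12 and DPPA2/4 peaks. The 10 widest with H3K9me3 alone lay outside protein-coding genes. The one at chr15:25057101-25073400 (16300 bp, log2 folds 3.27 and 2.54) covered the imprinted snoRNA genes SNORD116-4 to SNORD116-9, tandem copies that share reads. The widest, chr19:29428701-29451100 (22400 bp) in VSTM2B-DT, overlapped the end of a domain with both marks below the 25% limit and held H2AK119ub islands of 11600 and 22200 bp.

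The chromosomes carried the classes unevenly. Domains with both marks covered 22.9 kb per Mb of chromosome 19, 21.7 of chromosome 20 and 8.81 of chromosome 5, against 3.90 over all chromosomes, and 0.133 of chromosome X and 0.143 of chromosome 9. H2AK119ub alone covered most of chromosomes 20 (53.7 kb per Mb), 17 (39.9) and 19 (24.4), against 13.4 over all, and H3K9me3 alone most of 21 (29.4), 20 (28.4) and 7 (26.9), against 14.1. Chromosome 17 was thus rich in H2AK119ub alone only, with 3.17 kb per Mb of both marks. On chromosome 5 28.2% of H2AK119ub bases also had H3K9me3 and on chromosome 19 25.8%, compared with 11.1% over the genome and 1.25% on chromosome 9. Input reads per kb of islands were high on the chromosomes richest in both marks, at 10.1 on 19, 7.70 on 20 and 8.79 on 5, and low on 9 (4.12) and X (3.71). The order did not hold throughout, since chromosomes 14 (8.65), 4 (8.45) and Y (15.8) had high input with only 2.69, 0.776 and 0.295 kb per Mb of both marks, while 7 (6.01) and 10 (5.57) had 7.64 and 6.33 kb per Mb. Copy number and the marks cannot be told apart in island lists of 1 line.

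**Figure D4:**
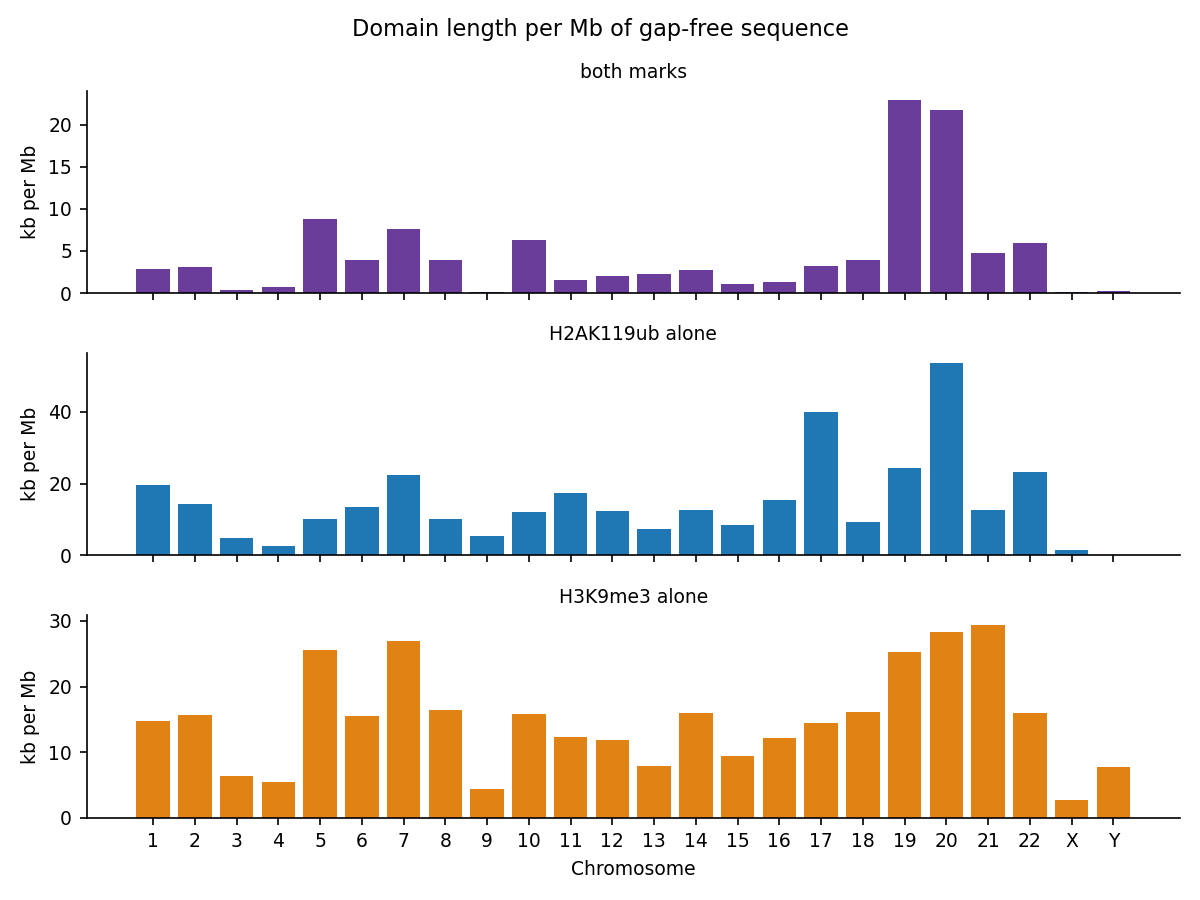
Domain length per Mb of gap-free sequence (kb per Mb) on each chromosome, for both marks (top), H2AK119ub alone (middle) and H3K9me3 alone (bottom), with a separate axis for each class. Chromosomes 19 and 20 stand out for both marks (22.9 and 21.7 kb per Mb), and chromosomes 20 and 17 for H2AK119ub alone (53.7 and 39.9).

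Domains with both marks were concentrated in few places. They were in 727 of the 2787 windows of 1 Mb that held any domain, and the 20 richest windows held 34.4% of their length, compared with 10.7% of the length of H2AK119ub alone and 9.91% of H3K9me3 alone in the 20 richest windows of those classes. The richest was chr19:30000001-31000000, around ZNF536, with 399 kb in 33 domains. It was followed by chr5:2000001-3000000 (358 kb, 50 domains), where IRX2 is the only protein-coding TSS, and chr20:57000001-58000000 (285 kb), which holds BMP7, CTCFL and PMEPA1. MNX1, a motor neuron homeobox gene, lay in the fifth window (chr7:157000001-158000000, 258 kb) and TCERG1L in the sixth (chr10:131000001-132000000, 238 kb).

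Input was high in part of these windows. It was 12.6 reads per kb of islands in the ZNF536 window, 9.91 in the IRX2 window and 7.57 in the PMEPA1 window, but 5.71 in the MNX1 window and 5.85 in the TCERG1L window, against a median of 4.89 over all windows. Windows above 2 times that median held 407 domains with both marks (13.3%), 626 with H2AK119ub alone (3.48%) and 2196 with H3K9me3 alone (7.01%). Without these windows, an alternative chosen after the data were seen, the share of H2AK119ub domains with H3K9me3 was 13.6%, the SUZ12 odds ratio of both marks over H2AK119ub alone was 2.05, and that of H2AK119ub alone over H3K9me3 alone was 12.2.

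Domains with both marks were also near chromosome ends. Within 5 Mb of an end lay 29.7% of them (28.1 to 31.4%), 19.7% of those with H2AK119ub alone (19.2 to 20.3%) and 4074 of 31331 with H3K9me3 alone (12.6 to 13.4%), against 7.77% of genome length. By library the shares were 20.7% and 19.5% of H2AK119ub islands and 13.4% and 13.6% of H3K9me3 islands, which did not overlap. Outside shared domains, the median distance from a domain with H2AK119ub alone to the nearest H3K9me3 domain was 33.2 kb, and 27.4% were within 10 kb, whereas from H3K9me3 alone to the nearest H2AK119ub domain it was 97.8 kb, with 18.4% within 10 kb.

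**Figure D5:**
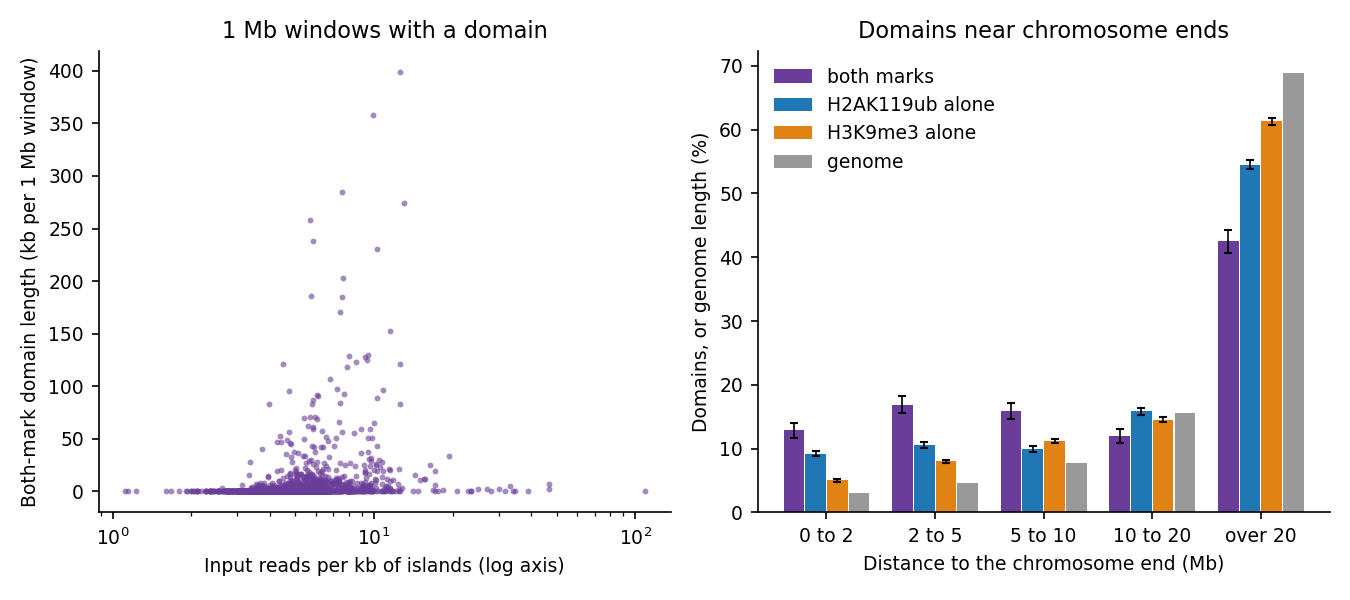
Left, length of domains with both marks (kb per 1 Mb window) against input reads per kb of islands (log axis), 1 point for each of 2787 windows. Right, share of domains by distance from the chromosome end (Mb) with 95% Wilson intervals, for both marks, H2AK119ub alone, H3K9me3 alone and the genome by length. The 10 richest windows lie at 5.71 to 13.02 input reads per kb, and within 5 Mb of an end the domains with both marks exceed the genome share (29.7% and 7.77%).

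In the second line of the series each mark overlapped the domains with that mark alone most often, at low shares. These NCI-H1299 cells carried inducible DPPA2 and DPPA4 and were the control arm, given water for as many days as the doxycycline arm. Their H2AK119ub consensus domains overlapped 1.40% of the NCI-H661 domains with both marks, 5.56% with H2AK119ub alone and 0.0734% with H3K9me3 alone. H3K9me3 consensus domains of that line overlapped 0.587%, 0.105% and 1.12% in the same order. By single library, H2AK119ub islands overlapped 5.06%, 13.3% and 0.619% (replicate 1) and 6.85%, 20.25% and 0.961% (replicate 2). H3K9me3 islands overlapped 2.15%, 0.505% and 3.06% (replicate 1) and 7.60%, 1.89% and 9.79% (replicate 2). These lists held 0.138 to 0.571 M reads in islands and 24.5% to 62.7% of islands at 0 input reads, and the part of depth in these low shares was not tested.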

How the data were processed

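Per the labels, all NCI-H661 libraries came from untreated parental cells. The authors aligned reads to hg38 and called each replicate separately against genomic input, with EPIC2 (100 bp bins) for histone marks and MACS2 for narrow peaks. The paper shows a single input for the formaldehyde-only libraries. In domains with a mark alone, the highest input density was 38.8 reads per kb in both H2AK119ub replicates and 132.5 in both H3K9me3 replicates. The libraries compared therefore likely share an input. Their folds would then not be independent of each other. Tools in the submitters' processing notes were BWA 0.7.13, deepTools 3.5.0, MACS2, Picard 2.6.0, SAMtools 1.9 and Trim Galore 0.6.6. For each island the authors deposited a log2 fold, a score, an FDR, a p-value and the counts of input and ChIP reads. For each narrow peak the authors deposited a score, a fold (a ratio) and p and q values as −log10. Folds, FDR and input counts were used here as deposited, to filter, rank and describe islands.

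Islands and peaks on the 24 standard chromosomes were used if their FDR was below 0.05 and their log2 fold above 1 (for peaks a fold above 2), the study's own limits. The blacklist applied by the authors was not used here, so pericentromeric domains were kept. No island ran past a chromosome end (0 in each list). Consensus domains, the 3 classes, promoters (1500 bp to each side of the TSS of 20033 protein-coding genes, GENCODE 44) and shares were computed with Python 3.11.15, numpy 2.4.6, pandas 2.3.3 and scipy 1.17.1. An alone domain could touch the other mark below the 25% limit (101 of H2AK119ub, 137 of H3K9me3). The rules were tested on simulated data. Class comparisons are shares with Wilson intervals and odds ratios with 95% intervals, and carry no p-value because domains are not replicates. The p-values over libraries are exact permutation tests.

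The classes and the 14 gene lists were chosen with earlier results of these data known. Named domains were, in each class, the 10 widest and the 10 highest by their lowest fold percentile over libraries, among domains of at least 1000 bp with at least 10 input reads. Named genes were up to 4 of each list and class by the same percentile, and chromosomes the 3 with most and fewest bases. Sequences were read from hg38 at the first domain by percentile off chromosome 8, and no window over an annotated UTR was used. H3K4me3 and H3K27me3 were not analysed here. Some items are not reported here.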

Additional observations from a re-analysis of the deposited data

How the results depend on the processing

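No odds ratio and no difference over libraries changed direction among the values recomputed here. The share of H2AK119ub domains with H3K9me3 has no direction, and moved in 12 settings and stayed in 3. Of all 114 values, 53 moved by more than the spread between replicates. The other 61 stayed within it or, for the differences over libraries, kept their direction. The DPPA2/4 odds ratio of both marks over H2AK119ub alone was not among them. The share of H2AK119ub domains with H3K9me3 (14.99%) was 10.1% at a log2 fold above 2, 17.8% with no fold minimum, 6.55% and 19.6% with islands joined at more than 50% of each or 25% of either, 7.52% with marks joined at more than 50% of each, 13.05% at 1 to 3 kb, 11.0% with at least 5 input reads and 13.2% without chromosomes 5, 19 and 20. Leaving out 1 library gave 11.2% to 28.5%. The SUZ12 odds ratio of H2AK119ub alone over H3K9me3 alone (11.7) was 8.69 to 18.4 with 1 library left out, 9.25 and 7.49 with 50% joining of replicates or marks, 9.09 at 1 to 3 kb, 9.57 around domain centres, 7.82 with SUZ12 islands and 50.7 with strictly alone domains. For DPPA2/4 (76.2) the range was 30.2 to 136 with 1 library left out, and the values were 92.8 at a log2 fold above 2, 47.3 and 93.2 with the joins of replicates, 55.97 with that of marks, 88.4 at 1 to 3 kb, 99.9 without chromosomes 19, X and Y, 44.2 with DPPA2/4 islands, 90.3 without windows of high input, 100.4 without chromosomes 5, 19 and 20 and 117 with strictly alone domains. The SUZ12 odds ratio of both marks over H2AK119ub alone (2.00) was 1.65 with no fold minimum, 1.53 and 1.23 with 50% joining of replicates or marks, 1.35 at 1 to 3 kb, 1.65 around domain centres, 2.51 with SUZ12 islands and 2.36 with strictly alone domains. The promoter odds ratio (22.8) was 11.3 to 31.2 with 1 library left out, 26.96 at a log2 fold above 2, 19.5 with no fold minimum, 19.5 and 17.0 with 50% joining of replicates or marks, 17.7 at 1 to 3 kb, 30.8 with at least 5 input reads, 5.60 with TSSs of all genes, 25.7 without chromosomes 5, 19 and 20 and 42.3 with strictly alone domains. The alternatives on high input, chromosomes 5, 19 and 20 and strictly alone domains were chosen after the data were seen. Except where an alternative itself leaves out libraries or domains, the cause was not tested.

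With the replicate number as a replicate block, the Mantel-Haenszel odds ratios of H2AK119ub over H3K9me3 islands were 3.47 for SUZ12, 26.5 for DPPA2/4 and 8.03 for promoters, in the direction of the unblocked differences. The numbers are shared labels, and no source says that they pair the libraries. With 2 libraries of a mark and 1 of SUZ12, the size of each class difference is known only to the ranges above, and a domain missed in 1 library leaves its class.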
